A study of Homo sapiens with 9 samples.

Results

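The expression of 10 hypoxia-inducible genes was examined in SKMEL28 human melanoma cells: HIF1A, VEGFA, ADM, CA9, NDRG1, BNIP3, ANKRD37, EGLN3, PDK1 and P4HA1. The genes were chosen by name, as the rows of the count and FPKM tables whose symbol was one of these 10 symbols, out of 48162 genes in all. RNA was sequenced from 3 groups with 3 libraries each. Cells of all groups were grown in DMEM with 5% serum, infected with lentivirus and selected for 3 days in puromycin at 1 µg/ml. The shCont cells carried a hairpin against GFP, a control with no target in human cells. The shp16 cells carried a hairpin against p16, the cell cycle inhibitor encoded by CDKN2A, and the shp16+shATR cells carried that hairpin together with one against ATR, a kinase of the DNA damage response. No group received the ATR hairpin without the p16 hairpin, and the oxygen level of the cultures is not given in the sources used here. The labels do not say whether the 3 libraries of a group came from separate infections, and the study describes an mRNA measurement on these groups as technical replicates of 1 experiment, so p-values measure only the spread between these libraries, which may be technical.

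HIF1A encodes the oxygen-regulated subunit of hypoxia-inducible factor 1. In normal oxygen, prolyl hydroxylases mark the protein for degradation through the VHL ubiquitin ligase, and in low oxygen it is stable, pairs with ARNT and binds DNA at hypoxia response elements. Much of this control therefore acts on the protein, which these data did not measure. The target genes serve blood vessel growth, glycolysis and mitochondrial fuel use, pH balance, collagen modification and mitophagy, and many melanomas express them.

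The hypoxia response element has the core ACGTG or GCGTG. Promoter windows of 250 bases before to 50 after the start of a gene were taken from RefSeq (GRCh38.p14). For the members, 10 windows of 8 members were examined. VEGFA and NDRG1 had no window among these 10 windows, although RefSeq holds both genes. Counts of matches in these windows therefore do not cover them and give no share over all 10 members. On either strand the core was present in 7 of these windows, from 7 members, and in 48.4% of 35116 such windows of all genes. ACGTG alone was present in 21.4% of all windows and GCGTG alone in 36.5%. A match is a description of the letters and not a binding site. The 4 windows below were picked by the expression results, and a link between matches and expression was not tested. HIF1A and ADM were called lower in shp16 than in shCont cells, and P4HA1 was called higher in shp16+shATR than in shp16 cells. The calls of ADM and P4HA1 were lost in some alternative analyses, as given below. BNIP3, with the most matches among the windows examined, passed the test in no comparison. Capitals mark the core on the strand shown or on the opposite strand (where it reads CACGT or CACGC).

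HIF1A, chr14:61695263-61695562, plus strand, first of 2 windows: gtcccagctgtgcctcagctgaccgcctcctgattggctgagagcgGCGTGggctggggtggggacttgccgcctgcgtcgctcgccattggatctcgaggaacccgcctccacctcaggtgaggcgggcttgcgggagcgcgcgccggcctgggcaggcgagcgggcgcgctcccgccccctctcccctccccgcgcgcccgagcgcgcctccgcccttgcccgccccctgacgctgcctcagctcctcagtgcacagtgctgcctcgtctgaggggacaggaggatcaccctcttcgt

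ADM, chr11:10304823-10305122, plus strand: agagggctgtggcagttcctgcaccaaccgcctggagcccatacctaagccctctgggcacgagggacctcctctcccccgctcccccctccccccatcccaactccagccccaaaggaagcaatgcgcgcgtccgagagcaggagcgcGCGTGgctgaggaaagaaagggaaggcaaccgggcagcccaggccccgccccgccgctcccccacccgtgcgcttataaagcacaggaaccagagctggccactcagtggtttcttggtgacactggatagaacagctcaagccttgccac

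P4HA1, chr10:73096817-73097116, minus strand: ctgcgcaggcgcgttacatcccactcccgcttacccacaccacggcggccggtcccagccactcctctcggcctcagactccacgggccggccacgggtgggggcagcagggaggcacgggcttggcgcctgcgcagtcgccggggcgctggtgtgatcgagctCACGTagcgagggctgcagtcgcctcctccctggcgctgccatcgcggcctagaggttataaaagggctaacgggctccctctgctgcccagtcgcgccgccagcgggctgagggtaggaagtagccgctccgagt

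BNIP3, chr10:131981874-131982173, minus strand: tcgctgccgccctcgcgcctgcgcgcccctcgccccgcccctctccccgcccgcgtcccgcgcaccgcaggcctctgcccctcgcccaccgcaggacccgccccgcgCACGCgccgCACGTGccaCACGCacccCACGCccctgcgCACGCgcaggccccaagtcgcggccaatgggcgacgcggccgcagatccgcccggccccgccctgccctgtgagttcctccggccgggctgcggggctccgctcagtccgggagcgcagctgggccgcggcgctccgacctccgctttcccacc

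The HIF1A, ADM and P4HA1 windows each held 1 match. The BNIP3 window held 6 matches in 5 separate places, all starting between positions −143 and −104 relative to the gene start, and 1 of these places was CACGTG, which is read as the core on both strands. ANKRD37 had 3 matches, PDK1 had 2 in the second of its windows, CA9 had 1 and EGLN3 had none.

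The libraries held between 17314662 and 23588174 counts. Values for 1 gene across libraries are given as CPM, counts scaled to a common library total, after TMM normalization, a scaling by edgeR that makes libraries comparable. ATR was at 93.5, 83.4 and 85.6 CPM in the shp16 libraries and at 39.9, 40.0 and 41.1 CPM in the shp16+shATR libraries (log2 fold change −1.12, standard error (SE) 0.220, adjusted p = 0.0128, edgeR). The first library labelled shCont, however, had 45.9 CPM of ATR, close to the knockdown level, against 93.5 and 96.4 CPM in the others. CDKN2A was at 162, 113 and 103 CPM in shCont and at 78.1, 93.5 and 99.9 CPM in shp16 (−0.48, SE 0.163, adjusted p = 0.0723, edgeR). In shp16+shATR it was at 82.6, 90.0 and 82.4 CPM and was called lower than in shCont (−0.57, SE 0.163, adjusted p = 0.0263, edgeR). Gene counts do not separate p16 from the other product of CDKN2A. The first shCont and the first shp16 library stood apart from the others of their groups, and mitochondrial genes took 7.24% of the counts of the first shp16 library against 4.25% in the other two. Each count of called genes below is therefore also given without both of these libraries. Such a fit leaves 2 libraries in each of these groups.

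The melanoma label was checked against 8 melanocyte lineage genes, all of which were expressed in every group, with a summed level of 13386 to 15002 CPM in shCont, 7769 to 13015 in shp16 and 10941 to 13044 in shp16+shATR. Of these 8 genes, TYRP1 was called lower in shp16 than in shCont (log2 fold change −0.43, edgeR). It was also called lower in shp16+shATR than in shp16 (−0.88) and than in shCont (−1.31). S100B was called lower in shp16 than in shCont (−0.68) and higher in shp16+shATR than in shp16 (0.67). No other gene of the 8 was called. Keratinocyte genes moved with the groups. The summed level of KRT1, KRT5 and KRT14 was at most 0.154 CPM in shCont, with KRT1 and KRT5 at 0 counts, but 6.19 to 14.9 CPM in shp16 and 2.82 to 8.88 CPM in shp16+shATR, and all 3 genes were called higher in both groups than in shCont. Of the fibroblast genes, DCN was called higher in shp16+shATR than in shCont, and the summed level of PDGFRA, DCN and LUM was 32.6 to 42.2 CPM in shCont, 26.3 to 43.7 in shp16 and 29.4 to 31.3 in shp16+shATR. CDH5 and VWF, of the endothelial list, summed to at most 3.12 CPM, and PTPRC, CD3E and CD14, of the leukocyte list, to at most 0.0519 CPM. The part of these other cell type genes in the results below was not tested. In bulk RNA, fewer cells that express a gene and less of its RNA per cell cannot be told apart.

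Levels of different genes were compared by the authors' FPKM, which divides by gene length. The length used was 12167 bases for VEGFA and 1444 to 3983 bases for the other members. In shCont the mean of VEGFA was 56.4 CPM, against 24.8 CPM for ADM and 9.70 CPM for ANKRD37. Its place below these genes by FPKM therefore rests on the length used. In shCont, HIF1A itself was the most abundant of the members at 144 ± 30.4 FPKM (SD, n = 3), followed by BNIP3 at 64.3 ± 5.16, P4HA1 at 42.8 ± 3.11, PDK1 at 41.3 ± 8.56 and NDRG1 at 33.6 ± 2.55. ADM was at 13.1 ± 0.939 FPKM, ANKRD37 at 6.73 ± 1.14, VEGFA at 4.65 ± 0.450 and EGLN3 at 3.99 ± 0.132. In that order the libraries of P4HA1 and PDK1 overlapped, as did those of PDK1 and NDRG1, whereas no other neighbours did. The same order of means was found in shp16 and in shp16+shATR. HIF1A and BNIP3, however, lay closer together there, and in shp16+shATR their libraries overlapped, with HIF1A at 68.6 ± 1.69 and BNIP3 at 59.6 ± 7.97 FPKM (SD, n = 3 each).

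**Figure D1:**
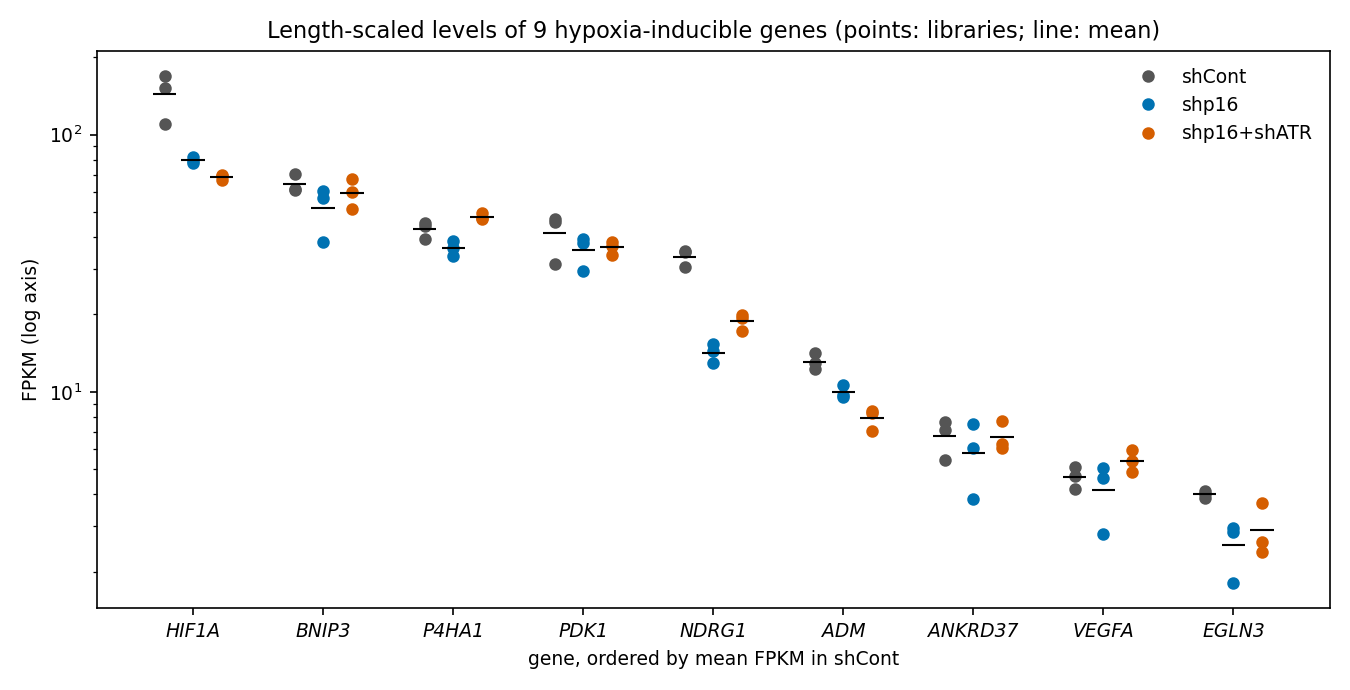
FPKM on a log axis of the 9 members other than CA9, ordered by their mean in shCont, with each library as a point and the group mean as a line (grey shCont, blue shp16, orange shp16+shATR). HIF1A was highest in every group, at a mean of 144, 79.4 and 68.6 FPKM, and EGLN3 was lowest of the genes shown.

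CA9, a carbonic anhydrase at the cell surface that takes part in pH balance and is a widely used marker of hypoxia, was essentially not detected. It had 0 counts in all 3 shCont libraries, 0, 2 and 2 counts in shp16 and 0, 0 and 2 counts in shp16+shATR. For shCont this allows a level of up to 0.0482 CPM over the group (3 counts of the group total), and the other groups held 4 and 2 counts in sum, so no difference was detectable at this depth. This limit covers counting error only. CA9 did not pass the filter on low counts, so the tests below cover 9 of the 10 members, and the opposite-strand gene ARHGEF39, which overlaps it, had 561 to 978 counts per library.

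The comparison of shp16 with shCont sets cells with the p16 hairpin against control cells. CDKN2A itself was not called in it (adjusted p = 0.0723, edgeR), so loss of p16 in shp16 cells was not shown by these counts. The expression of HIF1A, on chromosome 14 from 62162231 to 62214976 in the GRCh37 coordinates of the deposited table, was 449, 574 and 658 CPM in the shCont libraries. In shp16 it was 342, 301 and 296 CPM, so that every shp16 library lay below every shCont library. The fitted log2 fold change was −0.84 (SE 0.138, adjusted p = 0.00199, edgeR quasi-likelihood test with Benjamini-Hochberg adjustment over 15776 genes), or 1.79-fold lower. The first shCont library was the lowest of its group, and without it and the first shp16 library the value was −1.05. It passed in 20 of 21 alternatives, with a range of −1.05 to −0.71, and did not pass with the replicate block and only the groups compared (−0.82, adjusted p = 0.0800, edgeR). HIF1A-AS1, an antisense RNA that overlaps the start of HIF1A on the opposite strand, had 49, 33 and 31 counts in shCont and 5, 0 and 3 counts in shp16 (−3.71, SE 0.668, adjusted p = 0.00346, edgeR). The strand setting of the counting is not given in the sources used here, so reads of the antisense RNA and of HIF1A may not be separable. The antisense counts were, however, at most 49 in a library against at least 4692 for HIF1A.

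NDRG1, a stress-responsive gene induced by hypoxia and by iron depletion and linked to differentiation, fell furthest among the members. Its level was 127, 134 and 139 CPM in shCont and 54.9, 55.8 and 59.5 CPM in shp16. The groups were far apart relative to the spread within them, including the libraries that stood apart for other genes. The log2 fold change was −1.23 (SE 0.0995, adjusted p = 1.4e-05, edgeR), which is 2.35-fold lower, and it ranged from −1.29 to −1.19 over 21 alternative analyses, passing the test in each.

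ADM encodes adrenomedullin, a secreted peptide that widens blood vessels. It was at 27.8, 23.5 and 23.0 CPM in shCont and at 19.2, 18.0 and 19.5 CPM in shp16. The libraries did not overlap, but the difference was small, at a log2 fold change of −0.39 (SE 0.121), and its adjusted p of 0.0498 (edgeR) was at the edge of the threshold. In 13 of 21 alternatives ADM did not pass, with adjusted p between 0.0264 and 0.207 over all of them.

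EGLN3 encodes the prolyl hydroxylase PHD3, which acts on HIF proteins and is itself induced by them. It was at 11.8, 10.6 and 11.6 CPM in shCont and at 5.51, 7.92 and 8.24 CPM in shp16. All shp16 libraries were lower, the first of them by the most. The log2 fold change was −0.65 (SE 0.195, adjusted p = 0.0444, edgeR), and it was −0.49 and did not pass (adjusted p = 0.140, edgeR) without the first shp16 library. EGLN3 lost its call in 12 of 21 alternatives, and SPTSSA lies within the span the table gives for EGLN3, on the same strand.

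The other 5 members tested did not pass. P4HA1, the catalytic subunit of the collagen prolyl 4-hydroxylase, was at 120, 124 and 132 CPM in shCont and at 106, 110 and 104 CPM in shp16, without overlap (−0.23, SE 0.0925, adjusted p = 0.116, edgeR). BNIP3, a mitochondrial protein that promotes mitophagy, was at 102, 109 and 97.9 CPM in shCont and at 65.7, 89.2 and 94.6 CPM in shp16, also without overlap (−0.31, SE 0.143, adjusted p = 0.173, edgeR). PDK1 blocks the entry of pyruvate into the citric acid cycle by phosphorylating pyruvate dehydrogenase, and it was at 97.8, 131 and 139 CPM in shCont and at 93.8, 111 and 114 CPM in shp16, with overlap. VEGFA, the growth factor for endothelial cells, was at 53.1, 59.6 and 56.6 CPM in shCont. In shp16 it was at 36.3, 59.8 and 54.8 CPM, so that 2 of the 3 libraries lay in the range of shCont or just above it, and the first was far below (−0.17, SE 0.162, adjusted p = 0.537, edgeR). Without the first shp16 library the VEGFA difference was 0.02. ANKRD37, an ankyrin repeat protein of little known function, overlapped between the groups (−0.22, SE 0.210, adjusted p = 0.521, edgeR).

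In all, 4 of the 9 members tested were called lower and 0 higher, where 7.59% of all 15776 genes tested were called lower and 7.23% higher. In numbers of genes these were 1198 lower and 1141 higher, and 1475 lower and 922 higher with upper-quartile normalization. At the median, the 9 members stood at −0.31 on the log2 scale, against −0.02 over all genes tested. All 9 fitted values were below 0, as were 8169 of the 15776 over all genes tested. VEGFA, however, was at 0.02 without the first shp16 library, and ANKRD37 was at 0.05 without the first shCont and first shp16 libraries. Without the first shCont and first shp16 libraries, 6 members were called lower, where 15.8% of all genes were. HIF1A, NDRG1, ADM and EGLN3 were among these 6, joined by PDK1 (−0.26, adjusted p = 0.00271) and P4HA1 (−0.26, adjusted p = 0.00257, edgeR). With only the libraries of shCont and shp16 in the fit, 2 members passed, HIF1A and NDRG1.

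**Figure D2:**
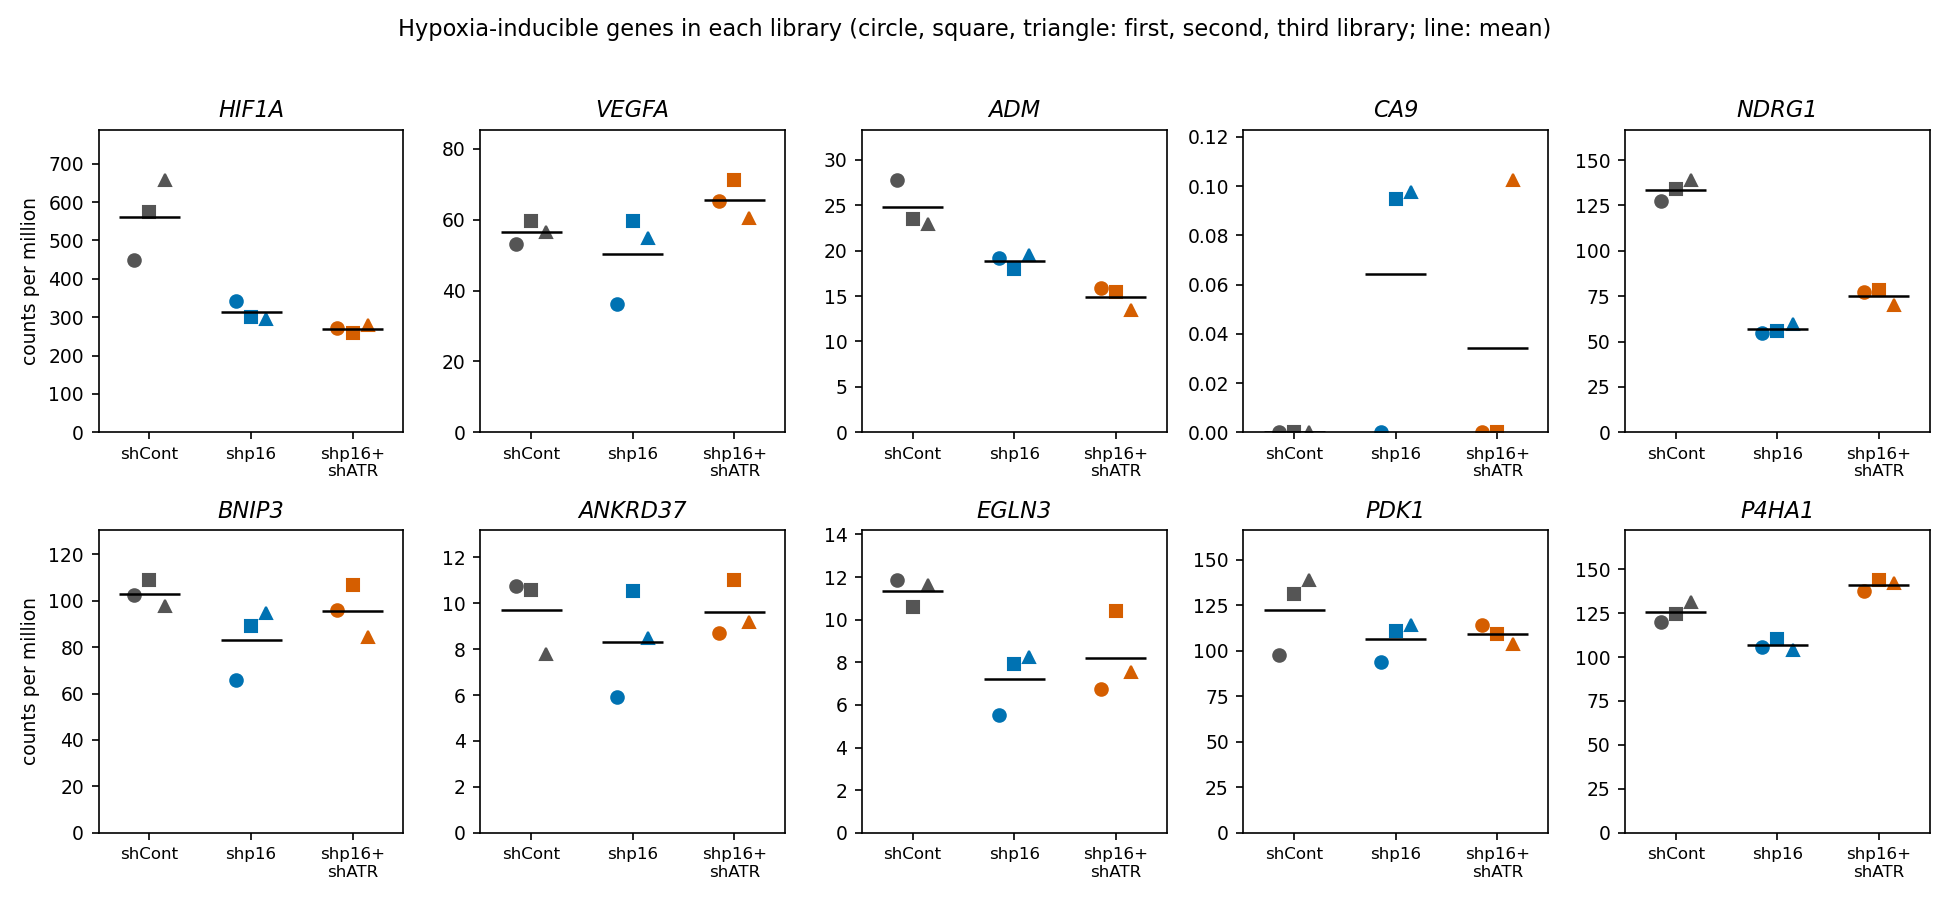
CPM of the 10 members in each library (y axis from 0, a scale of its own for each gene), with the libraries of a group as a circle, square and triangle in the order of their numbers and the group mean as a line. HIF1A and NDRG1 were lower in all shp16 and shp16+shATR libraries than in all shCont libraries, whereas for VEGFA, BNIP3, ANKRD37 and EGLN3 the first shp16 library (blue circle) was the lowest of its group.

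The first shp16 library was the lowest of its group for 6 of the 9 members, against 41.3% of all genes tested. It had 0.634 times the mean of the other shp16 libraries for VEGFA, 0.714 times for BNIP3, 0.623 times for ANKRD37 and 0.681 times for EGLN3, but 1.15 times for HIF1A, 1.03 times for ADM and 0.952 times for NDRG1. The members thus differed in how far this library carried their group mean. Of the genes of the lists described below, 2 of 14 of oxygen sensing, 7 of 19 glycolytic targets, 17 of 28 other targets of HIF, 1 of 8 VEGF and adrenomedullin ligands and receptors and 3 of 7 paralogs were lowest in this library, as were 7 of the 8 melanocyte lineage genes.

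Between shp16+shATR and shp16 cells, the largest fitted difference of a member was smaller than between shp16 and shCont cells. The labels do not say whether the shp16 cells carried an added control hairpin. The effect of an added hairpin as such was not tested. NDRG1 was at 77.2, 78.4 and 69.8 CPM in shp16+shATR, above all 3 shp16 libraries and below all 3 shCont libraries. The log2 fold change against shp16 was 0.41 (SE 0.0988, adjusted p = 0.0330, edgeR), or 1.32-fold higher. P4HA1 was at 138, 144 and 142 CPM in shp16+shATR, above every library of both other groups. Its log2 fold change against shp16 was 0.40 (SE 0.0926, adjusted p = 0.0252, edgeR). Neither gene passed when any 1 library of the shp16 or the shp16+shATR group was left out, with log2 fold changes between 0.37 and 0.45 for NDRG1 and between 0.38 and 0.43 for P4HA1. NDRG1 lost its call in 13 of 21 alternatives and P4HA1 in 8 of 21.

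The other members did not pass. VEGFA was at 65.2, 71.2 and 60.5 CPM in shp16+shATR, above all shp16 libraries (0.38, SE 0.162, adjusted p = 0.209, edgeR), and the value was 0.19 without the first libraries of shCont and shp16. ADM was at 15.9, 15.4 and 13.5 CPM, below all shp16 libraries (−0.34, SE 0.123, adjusted p = 0.135, edgeR). HIF1A was at 271, 258 and 279 CPM, also below all shp16 libraries but by little (−0.22, SE 0.137, adjusted p = 0.418, edgeR). ADM and HIF1A thus had fitted values of the opposite sign to NDRG1 and P4HA1. EGLN3 was at 6.75, 10.4 and 7.53 CPM and BNIP3 at 95.9, 107 and 84.2 CPM, and for EGLN3, BNIP3, ANKRD37 and PDK1 the libraries of shp16 and shp16+shATR overlapped, with fitted values between 0.04 and 0.21.

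Of the 9 members tested, 2 were called higher in shp16+shATR than in shp16 and 0 lower, where 2.73% of all genes tested were called higher and 3.49% lower. These were 430 higher and 551 lower, and 533 higher and 451 lower with upper-quartile normalization. The median of the members was 0.20 against 0.00 over all genes tested, and it was 0.03 without the first shp16 library. Without the first shCont and first shp16 libraries, NDRG1 and P4HA1 were called higher, where 12.4% of all genes were, and ADM was called lower (−0.34, adjusted p = 0.0156, edgeR), where 14.3% of all genes were.

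**Figure D3:**
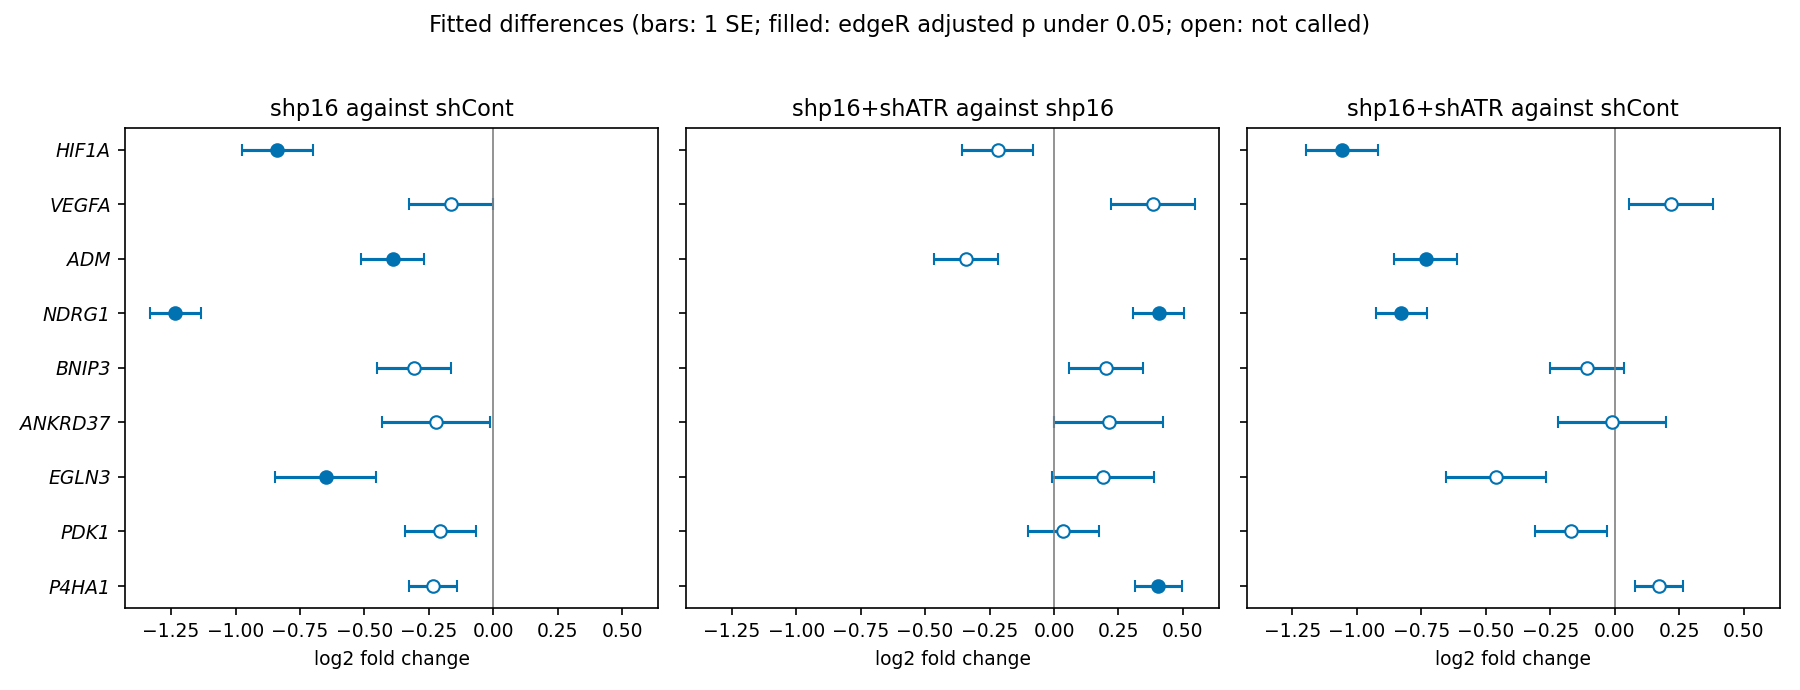
Fitted log2 fold changes of the 9 members that passed the filter, with bars of 1 SE, in each of the 3 comparisons, where filled points had an edgeR adjusted p under 0.05. In shp16 against shCont all 9 points lay below 0, in shp16+shATR against shp16 only HIF1A and ADM did, and in shp16+shATR against shCont HIF1A, NDRG1 and ADM were filled.

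Compared with shCont, HIF1A was 2.08-fold lower in shp16+shATR (−1.06, SE 0.138, adjusted p = 0.000269, edgeR), NDRG1 was 1.78-fold lower (−0.83, SE 0.0986, adjusted p = 0.00014) and ADM was 1.66-fold lower (−0.73, SE 0.122, adjusted p = 0.00129). All 3 genes passed in each of 21 alternatives. Thus 3 of 9 members were called lower and 0 higher, where 12.7% of all genes tested were called lower and 10.9% higher. This comparison uses the same shCont libraries as the first and the same shp16+shATR libraries as the second, so the 3 comparisons are not independent. The median of the members was −0.17 against −0.02 over all genes tested. EGLN3 did not pass (−0.46, SE 0.194, adjusted p = 0.110), and VEGFA (0.22), P4HA1 (0.17), PDK1 (−0.17), BNIP3 (−0.11) and ANKRD37 (−0.01) had adjusted p between 0.210 and 0.980 (edgeR). Without the first libraries of shCont and shp16, 5 members were called lower, where 23.2% of all genes were, with PDK1 (−0.32, adjusted p = 0.000134) and EGLN3 (−0.43, adjusted p = 0.0312, edgeR) joining HIF1A, NDRG1 and ADM. HIF1A-AS1 had 0, 3 and 0 counts in shp16+shATR.

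Genes around the members in the pathway were then examined by lists. Their counts stand against the shares of all genes called higher and lower, which were 7.23% and 7.59% for shp16 against shCont, 2.73% and 3.49% for shp16+shATR against shp16, and 10.9% and 12.7% for shp16+shATR against shCont. Without the first shCont and first shp16 libraries these shares were 16.9% and 15.8%, 12.4% and 14.3%, and 21.1% and 23.2%. Ranges of counts below are over 21 alternatives, and values in a row follow the order of the comparisons above.

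The list of oxygen sensing and the HIF complex held 15 genes, of which 14 were tested. In shp16 against shCont, EPAS1, which encodes HIF-2α, was called higher, from 31.2 ± 5.10 CPM to 49.0 ± 7.92 CPM (SD, n = 3; 0.65, adjusted p = 0.0156, edgeR), the opposite direction to HIF1A. EPAS1 lost this call in 4 of 21 alternatives, among them without the first shp16 library (0.51, adjusted p = 0.0646, edgeR). CITED2, which competes with HIF for the coactivators p300 and CBP, was called lower (−0.72, adjusted p = 0.00318), and the other 12 tested did not pass, among them VHL, EGLN1 and ARNT. In shp16+shATR against shp16, CITED2 was lower again (−0.60, adjusted p = 0.0199), as was HIF1AN (−0.69, adjusted p = 0.0101), the asparaginyl hydroxylase that limits HIF activity. Against shCont, 1 gene was called higher in shp16+shATR (EPAS1, 0.96) and 3 lower (CITED2, −1.32; HIF1AN, −0.45; ARNT, −0.40). CITED2 against shp16 lost its call in 6 of 21 alternatives, those that left out 1 library of either group, and against shCont HIF1AN lost it in 8 of 21 and ARNT in 11 of 21. The medians of this list were 0.03, −0.03 and −0.09. The numbers called, 2, 2 and 4, ranged from 0 to 5, from 0 to 6 and from 2 to 9. Without both first libraries 1 gene was called higher and 4 lower, 2 higher and 4 lower, and 3 higher and 6 lower.

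The list of glucose uptake and glycolysis held 19 targets of HIF, all tested. In shp16 against shCont 2 were called higher and 1 lower. SLC2A3, the glucose transporter GLUT3, was 1.35-fold higher (0.43, adjusted p = 0.0314, edgeR), ALDOC, an aldolase, was higher but at no more than 1.02 CPM in any shp16 library, and SLC16A3, a lactate exporter, was lower (−0.64, adjusted p = 0.0253). These calls were lost in 12 of 21 alternatives for SLC2A3, 9 of 16 for ALDOC and 10 of 21 for SLC16A3, and no gene of the list was called without the second or without the third shp16 library, with only the groups compared, or with limma. In shp16+shATR against shp16, SLC2A3 rose from 119 ± 0.943 CPM to 271 ± 3.89 CPM (SD, n = 3; 1.19, adjusted p = 0.000375). PFKFB4, which makes the activator of phosphofructokinase, rose from 158 ± 39.9 to 384 ± 43.6 CPM (1.27, adjusted p = 0.00199, edgeR), and no gene of the list was called lower. Against shCont, 5 were called higher and 0 lower, including SLC2A3 (1.62), PFKFB4 (0.78), ENO2 (0.62) and ALDOC (3.19). The calls of SLC2A3 and PFKFB4 against shp16 held in all 21 alternatives. The medians were −0.11, 0.10 and 0.00. The numbers called, 3, 2 and 5, ranged from 0 to 13, from 2 to 8 and from 4 to 14. Without both first libraries 5 were called higher and 8 lower, 8 higher and 0 lower, and 9 higher and 5 lower.

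Of 29 other targets of HIF, 28 were tested. In shp16 against shCont 4 were called higher and 2 lower. STC2, a secreted glycoprotein, was 6.00-fold higher (2.58, adjusted p = 0.00309, edgeR) but at a low level of 3.24 ± 1.24 CPM in shp16 (SD, n = 3), VLDLR, a lipoprotein receptor, was at 0.60, and DDIT4, an inhibitor of mTORC1, was at 0.51. LOX, which crosslinks collagen, was lower (−0.51, adjusted p = 0.00951). In shp16+shATR against shp16, 4 were called higher and 0 lower. Among them ANGPTL4, a regulator of lipoprotein lipase, was at a low level of 1.32 ± 0.322 CPM in shp16+shATR (2.05, adjusted p = 0.0313), and LOXL2 (0.77) and DDIT4 (0.47) were higher at an adjusted p of 0.00339 and 0.0223 (edgeR; SD, n = 3). Against shCont, 6 were called higher and 2 lower, including STC2 (2.04), LOXL2 (1.25) and DDIT4 (0.97). The medians were −0.04, 0.17 and 0.06. LOXL2 in shp16+shATR against shp16 passed in all 21 alternatives, whereas DDIT4 lost its call in 8 of 21 and ANGPTL4 in 8 of 17. DESeq2 called 3 higher and 1 lower there. The numbers called, 6, 4 and 8, ranged from 1 to 11, from 2 to 14 and from 5 to 16. Without the third shp16 library 2 were called in shp16 against shCont, and without the first shCont library 10 were. Without both first libraries 5 were called higher and 6 lower, 7 higher and 7 lower, and 9 higher and 7 lower.

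Of 11 further ligands and receptors of the VEGF and adrenomedullin families, 8 were tested, and 3 were called higher and 2 lower in shp16 against shCont. VEGFC, the ligand for lymphatic vessels, went from 2.82 ± 0.778 to 0.311 ± 0.164 CPM (−3.16, adjusted p = 0.00105), and NRP1, a VEGF co-receptor, went from 1.38 ± 0.772 to 0.282 ± 0.122 CPM (−2.27, adjusted p = 0.0232, edgeR; SD, n = 3). FLT1, a VEGF receptor, was higher but below 2 CPM in every library (1.51, adjusted p = 0.0124), and PGF, placental growth factor, was higher (0.95, adjusted p = 0.00746). VEGFC passed in all 20 alternatives that tested it, whereas NRP1 lost its call in 6 of 18, among them without the first shp16 library (−2.48, adjusted p = 0.0610, edgeR). None of the 8 was called in shp16+shATR against shp16 (edgeR), where 1 had an unadjusted p under 0.05, as did 3141 of all 15776 genes tested. Against shCont, 3 were called higher and 3 lower in shp16+shATR, the latter being VEGFC (−3.49), NRP1 (−2.62) and RAMP2 (−1.35), a subunit of the adrenomedullin receptor. The medians were 0.06, −0.14 and 0.23. The numbers called, 5, 0 and 6, ranged from 1 to 6, from 0 to 2 and from 3 to 7. In shp16 against shCont there were 2 with at least 10 counts in every library, 3 without the third shp16 library and 1 with the replicate block and only the groups compared. Without both first libraries 4 were called higher and 2 lower, 1 higher and 1 lower, and 4 higher and 3 lower.

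Of 9 paralogs and partner subunits of the members, 7 were tested. PDK2 was lower in shp16 than in shCont (−0.58, adjusted p = 0.0330, edgeR) and was the only gene of the list called there. This call was lost in 10 of 21 alternatives, among them each that left out 1 shp16 library. None was called in shp16+shATR against shp16 (edgeR), where 1 had an unadjusted p under 0.05, as did 3141 of all 15776 genes tested. Against shCont, NDRG4 (0.88) and NDRG2 (0.52) were higher in shp16+shATR, the opposite direction to NDRG1, and PDK2 (−0.65) and P4HB (−0.61), the partner of P4HA1 in the collagen hydroxylase, were lower, and NDRG4 lost its call in 10 of 19 alternatives. The medians were 0.05, 0.13 and 0.06. The numbers called, 1, 0 and 4, ranged from 0 to 3, from 0 to 3 and from 2 to 5. Without both first libraries 2 were called higher and 1 lower, 1 higher and 2 lower, and 3 higher and 2 lower.

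**Figure D4:**
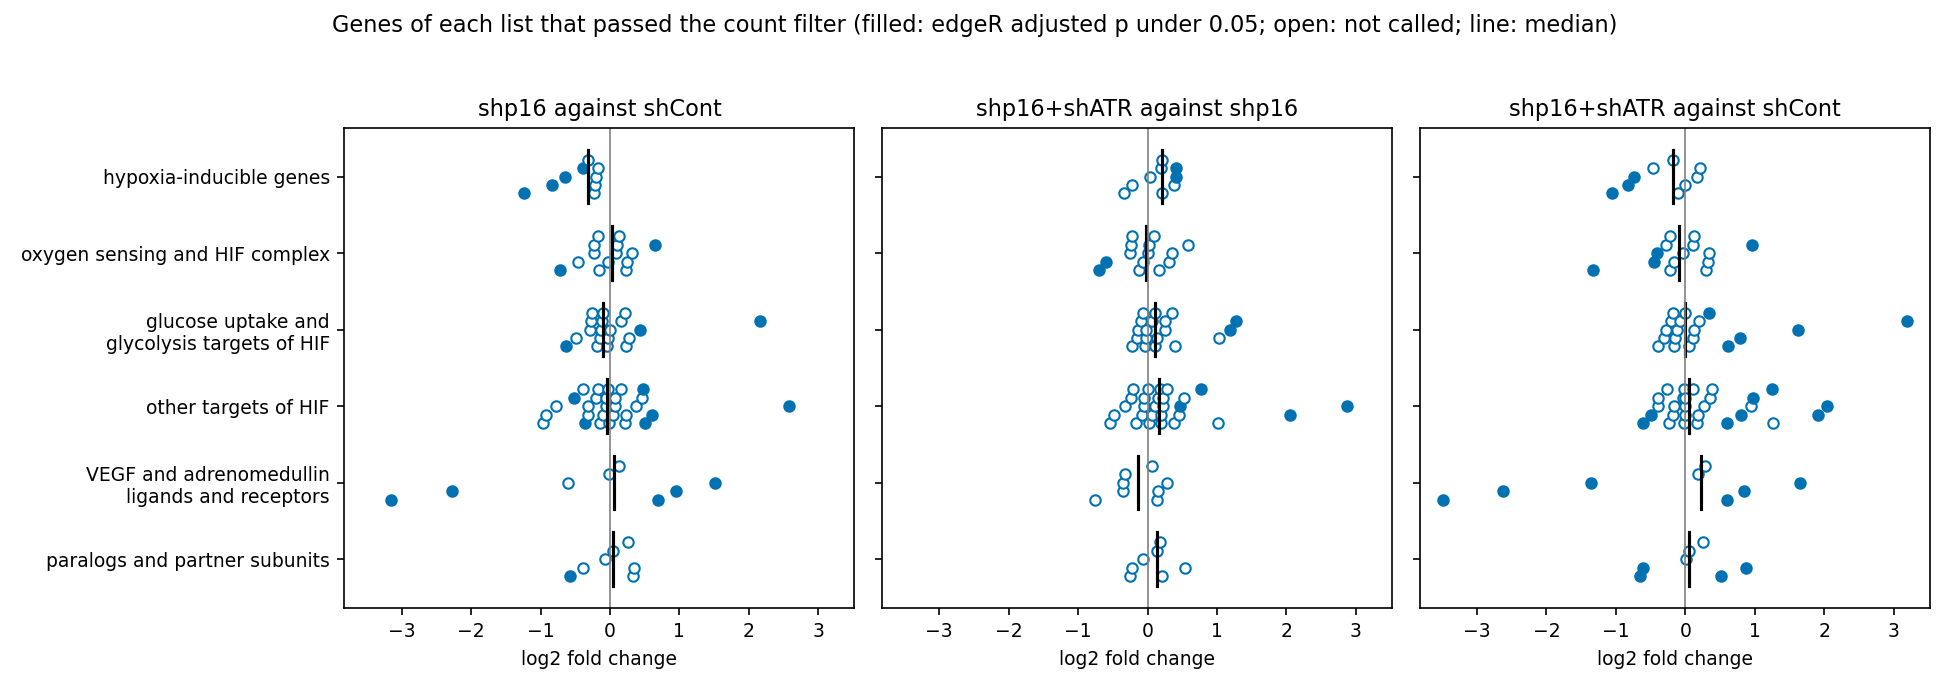
Fitted log2 fold changes of the members and of the genes of each list that passed the filter on low counts, with filled points for an edgeR adjusted p under 0.05 and a line at the median of each list. The member medians lay at −0.31, 0.20 and −0.17, and the medians of the other lists lay between −0.14 and 0.23.

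For each member called in a comparison, the gene with the most similar pattern was the one with the highest Pearson correlation of log2 CPM (with 1 added) over the 9 libraries. It was EPHA4 for HIF1A (r = 0.99), SH3TC1 for ADM (r = 0.99), ERLEC1 for NDRG1 (r = 0.99), STAG3L4 for EGLN3 (r = 0.96) and SLC20A1 for P4HA1 (r = 0.98). These values were the highest among all genes tested and the libraries fall into 3 groups, so they describe a pattern over the groups.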

How the data were processed

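RNA of SKMEL28 cells was measured in 9 libraries, 3 each of shCont, shp16 and shp16+shATR. The authors deposited raw read counts per gene and FPKM derived from them. The submitters' processing notes name STAR 2.6.1 and GRCh38, but the coordinates in the tables are those of GRCh37, and the strand setting is not given in the sources used here. The shp16+shATR counts stand under 1 repeated header. Each count column matched 1 FPKM column within a relative difference of 4.22e-07, which gave the replicate numbers. From the counts, edgeR 4.0.16 in R 4.3.3 (TMM, filterByExpr, quasi-likelihood test) was fitted to all 9 libraries and 15776 genes, with Benjamini-Hochberg adjustment and a threshold of 0.05. Each SE was derived from that test, as the size of the log2 fold change divided by the square root of its F statistic. A simulated test of shp16 against shCont over 15426 genes recovered 96 of 100 genes at a log2 size of 1. It also called 11 genes that had not been changed. Genes at a low level were not changed, no size below 1 was simulated, and no simulated library was made to stand apart. Recovery of the smaller differences reported here was therefore not measured. DESeq2 1.42.0, limma 3.58.1 on log2 FPKM, other normalizations, filters and thresholds, and each library left out were alternatives. Leaving out both first libraries and the replicate block in the 2 groups compared were chosen after seeing the data. The members and lists were chosen with earlier results of these data known. Named genes were the members, CDKN2A, ATR, up to 4 called genes per list and comparison with the largest fold changes, and the most similar gene of each called member; 1 gene that this rule names is not reported here. Marker and overlapping genes were named after their values were seen. Figures were drawn with matplotlib and tables made with pandas 2.3.3.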

Additional observations from a re-analysis of the deposited data

How the results depend on the processing

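HIF1A, NDRG1 and ADM in shp16+shATR against shCont, and NDRG1 in shp16 against shCont, passed the threshold in all 21 alternatives. In shp16 against shCont, 4 members were called. There were 2 with library size only, with limma on log2 FPKM with 1 added and no filter, with only the groups compared and at an adjusted p of 0.01, and 1 (NDRG1) at a log2 fold change of at least 1 in size. Leaving out each library in turn gave 2 to 6. In shp16+shATR against shp16, 2 members were called. There was 1 with library size only and with each of the 3 limma fits, and 0 with no filter on low counts (edgeR), at an adjusted p of 0.01 and at the larger fold change. Leaving out each library gave 0 to 3, and the lowest count came from leaving out any library of either group compared. At an unadjusted p under 0.05 (edgeR), 4 members passed, as did 3141 of all 15776 genes tested. DESeq2 called 2 members. In shp16+shATR against shCont, 3 members were called, 5 without the first shCont and first shp16 libraries, 1 at the larger fold change, and 3 to 4 with each library left out. The causes of these changes were not tested, except that stricter thresholds call fewer genes by construction.

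Over all genes, 2339 were called in shp16 against shCont, 981 in shp16+shATR against shp16 and 3724 in shp16+shATR against shCont. With limma and no filter the first was 1443 and the second 601, and with DESeq2 the second was 1508. With only the groups compared they were 1186 and 2878. At an adjusted p of 0.01 the 3 counts were 994, 309 and 1974, and at the larger fold change 779, 165 and 1178. Leaving out each library gave 1344 to 4192, 292 to 3223 and 2354 to 5395. The highest counts came without the first shCont library, and without it and the first shp16 library the counts were 5264, 4304 and 7130. Upper-quartile normalization gave 922 higher and 1475 lower in shp16 against shCont, against 1141 and 1198, and 533 and 451 in shp16+shATR against shp16, against 430 and 551.

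The labels do not say whether the shared replicate numbers pair the libraries. After the group means were taken off, the correlations of same-numbered libraries were between −0.30 and 0.27. With 3 libraries per group, some of which stood apart, these correlations cannot show whether the libraries were paired. With the replicate block and all 9 libraries, 3, 0 and 3 members were called and 612 genes in shp16+shATR against shp16. With the replicate block and only the groups compared, 1 member (NDRG1) and 423 genes were called in shp16 against shCont, and 2145 genes in shp16+shATR against shp16.

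Values that changed sign were small and did not pass the test on either side, except ATR without both first libraries. VEGFA in shp16 against shCont lay between −0.31 and 0.0244 with single libraries left out. ANKRD37 in that comparison was 0.0498 without both first libraries. ANKRD37 in shp16+shATR against shCont was 0.0050 with DESeq2, 0.0001 with at least 10 counts in every library, between −0.15 and 0.0668 with single libraries left out and 0.0676 without both first libraries. In shp16+shATR against shp16, EGLN3 lay between −0.0184 and 0.32 and PDK1 between −0.0483 and 0.0889 with single libraries left out, and PDK1 was −0.0529 without both first libraries. ATR in shp16 against shCont lay between −0.12 and 0.33 with single libraries left out and was −0.17 without both first libraries (adjusted p = 0.0421, edgeR). Depth limits CA9, at 0 to 2 counts in every library.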
